A study of Arabidopsis thaliana with 6 samples.

Results

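The regions described here are the places in the Arabidopsis genome at which chromatin recovered through a tagged WUSCHEL (WUS) protein exceeded the same pull-down from plants without the tag. They come from 2 of the 6 deposited lists of a ChIP-seq series, the WUS-GR list and the Col-0 list of the RFP-trap pull-down, and all regions of both lists were used. Each list holds 100-bp windows by position alone, and windows that touched were joined into 1 region. The WUS-GR list, in which WUS-GR seedlings had more signal than Col-0, gave 10087 regions from 42402 windows. The Col-0 list, the same comparison read the other way, gave 580 regions from 706 windows. The other 4 lists record histone marks and were not used.

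The WUS-GR plants carried pUBI10::mCherry-GR-linker-WUS, a fusion of mCherry, the ligand-binding part of the glucocorticoid receptor and WUS, expressed from the ubiquitin promoter in a homozygous line with 1 insertion. Col-0 plants, the wild type, carried no transgene. Whole seedlings of both genotypes were harvested 5 days after germination, after 2 h in 25 µM dexamethasone according to the labels, so the steroid itself was common to both groups. The methods of the study give a lower concentration, and the label was followed. DNA of several immunoprecipitations was pooled for each genotype, and each group is 1 list, so there was no replicate, no p-value could be given, and every interval below is a 95% Wilson interval that covers counting error only. The receptor part holds the fusion outside the nucleus until the steroid is given. The ubiquitin promoter is active in nearly all tissues, unlike the WUS promoter with its few meristem cells, and a whole seedling mixes all of its cell types.

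WUS is a homeodomain transcription factor that is made in the organizing centre of the shoot meristem, moves into the stem cells above and keeps them undifferentiated, mostly as a repressor working with TOPLESS co-repressors. Plant hormones reach transcription through short chains of synthesis enzymes, receptors, repressor proteins and DNA-binding factors, and in the meristem auxin and cytokinin act in opposite ways on stem cells and organ founders. The hormone genes below are ordered by these roles.

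As examples of sequence at extensively bound genes, chosen and centred by a motif, 30 bases of the TAIR10 genome are given for 10 genes. They were the 8 genes with most bound bases and the leading gene of each hormone pathway, as far as the longest region of the gene contained the hexamer CACGTG, the core of the G-box that bHLH and bZIP factors recognise. The capitals mark the CACGTG nearest the middle of that region, and each sequence is read 5′ to 3′ on the strand of the gene. Where regions of a gene were equally long, a single one was searched, and the flanking bases can pass its end, as at ARF6.
AT3G06750, chr3:2131081-2131110, minus strand: ctttctcatatcCACGTGtcttctctttgc
WRKY11, chr4:15292699-15292728, minus strand: aacaaaagtcgaCACGTGacaagaacttaa
AT5G60680, chr5:24384493-24384522, plus strand: gggtcctgccttCACGTGgcacccatctaa
AT3G57800, chr3:21413704-21413733, minus strand: ttgggccagtgtCACGTGattaacacgcgg
AT1G09250, chr1:2990890-2990919, plus strand: tttaagactcccCACGTGtgctctttcttt
PYL8, chr5:21558959-21558988, plus strand: tgttggataaagCACGTGggaccttttgct
ARF6, chr1:10693274-10693303, minus strand: cacaaggatccaCACGTGtggattcagtgt
JAZ6, chr1:27277059-27277088, minus strand: ccaagattccgaCACGTGttgacatcctaa
DWF4, chr3:18814607-18814636, minus strand: tgattaatgaccCACGTGgtgtggtgccaa
ICS2, chr1:6513584-6513613, plus strand: gttacctccccaCACGTGgcctgaagggga

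The hexamer is the same on both strands, so 1 search covers them. It was present in the middle 300 bp of 19.6% of the regions at least that long (1419 of 7233, interval 18.7 to 20.5), and in 7.09% of the 300-bp stretches just before the starts of all 27444 protein-coding genes. Of the 25 genes with most bound bases, 14 held it in their longest region (56%, 37.1 to 73.3). Among 1044 other WUS-GR regions in the same range of lengths, 800 to 3000 bp, 42.8% held it (39.8 to 45.8). The median length was 1700 bp for the leading genes and 1000 bp for these other regions. The longest regions of GID1B, AT1G53210, AT5G01720, LOG7, ACO4 and SMAX1 did not contain these letters, with a single one of the equally long regions searched at LOG7. A match describes the sequence and does not by itself mark a contact of WUS.

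Regions of the WUS-GR list had a median length of 300 bp, with quartiles of 200 and 500 bp, and 606 of them (6.01%) reached 1000 bp or more. Regions of the Col-0 list had a median of 100.0 bp, the longest spanned 500 bp, and 84.0% were a single window, compared with 9.16% in the WUS-GR list. WUS-GR regions occurred on every chromosome, at between 78.4 per Mb on chromosome 4 and 90.8 per Mb on chromosome 1. Within chromosomes they were uneven. Over 116 bins of 1 Mb, the median bin held 92 WUS-GR regions, the poorest held 2, in a bin of chromosome 4 with 33 protein-coding genes, and the richest held 168, in a bin of the same chromosome with 273. The Col-0 list had a median of 4 regions per bin and a maximum of 55, on chromosome 2 between 3 and 4 Mb, where the WUS-GR list had 15.

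The midpoint of a region decided which single protein-coding gene it was given to: a gene whose body held it, failing that the gene with the nearest transcription start site (TSS) within 2500 bp downstream, or else a gene ending within 1000 bp. Of the WUS-GR regions 5394 (53.5%) were placed upstream, 3053 in a gene body, 648 downstream and 992 at no gene. Of the Col-0 regions 127 (21.9%) were placed upstream, 293 in a gene body, 19 downstream and 141 at no gene. A place is that of the midpoint, and a region can extend beyond it, for example from upstream into the gene. Regions of at least 1000 bp made up 2.52% of the WUS-GR regions in gene bodies, compared with 7.49% of those upstream, 8.18% of those downstream and 7.26% of those at no gene.

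A gene with at least 1 assigned region is called bound. In the WUS-GR list 6741 of 27444 protein-coding genes were bound, or 24.6%, which is the background for every list of genes below. In the Col-0 list 403 genes (1.47%) had a region, and 218 of these were also bound in the WUS-GR list, which is 54.1% of the Col-0 genes and 3.23% of the WUS-GR genes. Of the bound genes 4920 had a single region, 1384 had 2 and 14 had 5 or more. The bases of all regions assigned to a gene were summed as its bound bases. Bound genes had a median of 400.0 bound bases, the 90th percentile was 1200 and the 99th was 2200.

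The 25 protein-coding genes with most bound bases lay between 2500 and 3900 bp, and 22 of them had no base in the Col-0 list. This is a ranking of the list itself, given as a description. Rank 25 was shared, since 11 genes had 2500 bp and 3 of them were taken in order of locus tag, and the next lower value was 2400 bp. In most of them the bound bases were split over several regions, with up to 5 regions at NRT1.1 and AT2G47440.

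The first place was held by AT3G06750, which encodes a hydroxyproline-rich glycoprotein (chromosome 3, 2129551 to 2130451, minus strand), with 3900 bp in WUS-GR and 0 in Col-0. Of these, 3000 bp formed 1 unbroken upstream region and 900 bp lay downstream of the gene. WRKY11, a WRKY factor known to restrain basal defence, followed with 3300 bp in WUS-GR and 0 in Col-0. Its 1900-bp region (chromosome 4, 15291301 to 15293200) ran across the TSS, and a second region of 1400 bp had its midpoint in the gene body. AT5G60680, a DUF584 protein, equalled it with 3300 bp in 4 regions, a pair of them upstream and 1400 bp long each.

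Several of the other leading genes encode regulators. The bHLH genes AT3G57800 and AT1G09250 had 3200 and 3000 bp in WUS-GR and 0 in Col-0, and AT1G09250 had 2700 bp of its bound bases in 1 region that began in the gene and had its midpoint downstream. GTL1, a trihelix factor that limits trichome growth, had 2700 bp in WUS-GR and 0 in Col-0. TCP14, a TCP factor that promotes growth of internodes and the embryo, had 2600 bp in WUS-GR and 0 in Col-0, with a region centred at -392.5 bp from the TSS, another in the gene body and the last behind the gene. BT1, a BTB and TAZ domain scaffold protein, had 2800 bp in 4 regions in WUS-GR and 0 in Col-0.

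Hormone and peptide signalling was present as well. GID1B, a gibberellin receptor, had 3100 bp in WUS-GR and 100 bp in Col-0. All 3 of its WUS-GR regions had their midpoints upstream (chromosome 3, 23286301 to 23287200, 23287301 to 23287800 and 23288001 to 23289700), and the gaps between them were 1 and 2 windows wide. NPY5, a relative of the NPH3 protein that acts in auxin-dependent organ formation, had 2900 bp in WUS-GR and 0 in Col-0. PLL5, of the POLTERGEIST-like phosphatase family, members of which act below CLAVATA signalling, had 2500 bp in WUS-GR and 0 in Col-0. RTFL17 encodes a small peptide of the ROTUNDIFOLIA family and had 2500 bp in WUS-GR and 0 in Col-0.

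Transport and metabolism made up much of the remainder. The aquaporin genes PIP1C and PIP3 each had 2600 bp in WUS-GR, against 200 bp in Col-0 at PIP1C and 0 at PIP3. TDT, the malate carrier of the vacuole, had 2900 bp in WUS-GR and 0 in Col-0, of which 2500 bp were a single upstream region. NRT1.1, the nitrate transporter and sensor, had 2500 bp in 5 regions in WUS-GR and 0 in Col-0, with 3 regions upstream and a pair in the gene body. SMT2, a sterol methyltransferase, had 2600 bp in WUS-GR and 100 bp in Col-0. The unnamed F-box gene AT2G27310 differed from the others in that its 2700 bp were 1 region with the midpoint in the gene body.

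Several of these values depended on how regions were assigned. Without the WUS-GR regions within 1000 bp of a Col-0 window, GID1B and PIP1C were at 0 and SMT2 had 800 bp. When non-coding genes could also take a region, GTL1 had 1600 bp, PLL5 had 700 bp and AT2G46520, an importin-alpha re-exporter, had 0. With 1000 bp upstream in place of 2500 bp, AT3G06750 had 900 bp, AT5G60680 had 1900 bp, AT3G57800 had 1800 bp, BT1 had 1700 bp, GTL1 had 1600 bp, AT2G47440 had 1300 bp and AT4G37550, an amidase gene with 2900 bp in 1 upstream region, had 0. Joining windows up to 500 bp apart brought NRT1.1 and RTFL17 to 4500 bp each.

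**Figure D1:**
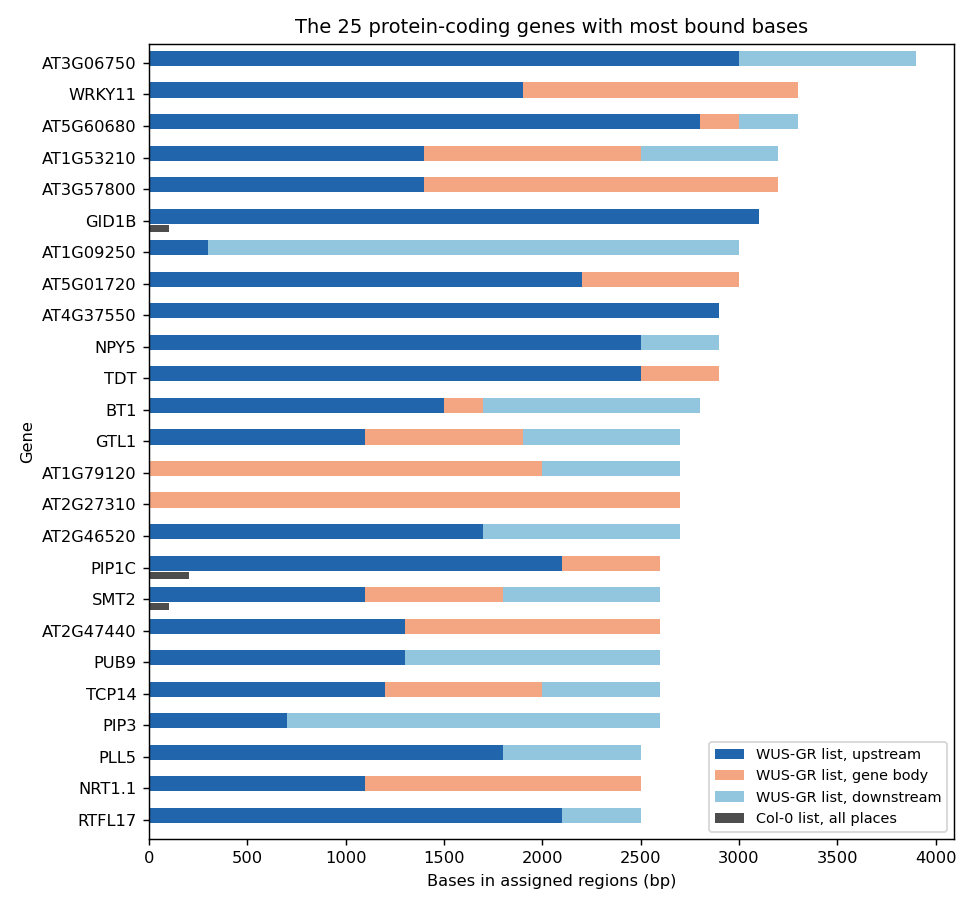
Bases in assigned regions (horizontal axis, bp) for the 25 protein-coding genes with most bound bases, with the WUS-GR list as the upper bar of each gene, divided into upstream, gene body and downstream regions, and the Col-0 list as the lower bar. The WUS-GR bars run between 2500 and 3900 bp, and a Col-0 bar is seen only at GID1B, PIP1C and SMT2, at 100 or 200 bp.

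Transcription factor genes were bound more often than protein-coding genes at large. Over 24 families, sorted by their DNA-binding or defining domains, 749 of 1661 genes were bound in WUS-GR (45.1%, 42.7 to 47.5), compared with 24.6% of all protein-coding genes, while 24 of 1661 (1.44%) had a region in Col-0, compared with 1.47% of all. At least 2 regions were assigned to 17.6% of the transcription factor genes and to 6.64% of all protein-coding genes. Bound transcription factor genes had a median of 600.0 bound bases. The families ranged from 79.4% to 18.3%, and 22 of the 24 lay above the background.

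GRAS genes, which include the DELLA repressors and the HAIRY MERISTEM regulators of the meristem, had the highest share, with an interval that overlaps those of the next families, at 27 of 34 bound in WUS-GR (79.4%, 63.2 to 89.7) and 1 in Col-0. Their leading members were the DELLA gene GAI with 2300 bp, HAM3 with 2000 bp in 3 regions and AT3G50650 with 1900 bp in 1 region. The families that govern leaf growth and timing were close behind. GRF growth factors were bound at 7 of 9 genes, TCP factors at 17 of 24 (70.8%, 50.8 to 85.1) and SPL factors of phase change at 12 of 17 (70.6%, 46.9 to 86.7), and none of these 3 families had a gene in the Col-0 list. GRF1 had 1100 bp in WUS-GR, SPL11 and SPL2 had 1000 bp each. Their intervals overlap, and no order among them is resolved.

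B-box genes, which act in light signalling and flowering, were bound at 25 of 33 genes in WUS-GR (75.8%, 59.0 to 87.2) and 1 in Col-0. COL5, BBX28 and BBX14 led with 2400, 2300 and 1800 bp in WUS-GR, and COL5 had 100 bp in Col-0. Without the WUS-GR regions within 1000 bp of a Col-0 window, COL5 had 1200 bp, below BBX28 and BBX14. AP2/ERF, the largest family above 60%, had 90 of 146 genes bound in WUS-GR (61.6%, 53.6 to 69.1) and 3 in Col-0, with DEAR2 at 2500 bp in 4 regions, ERF-1 at 2400 bp and ERF12 at 2300 bp in 5 regions. ERF12 had 100 bp in Col-0, and 1200 bp in WUS-GR without regions within 1000 bp of a Col-0 window. DOF genes were bound at 22 of 36 (61.1%), led by CDF1, a repressor of flowering, at 1700 bp. Homeobox genes, the family to which WUS belongs, were bound at 56 of 97 (57.7%, 47.8 to 67.1) in WUS-GR and 3 in Col-0. Their leading member was WOX1, a close relative of WUS that acts in leaf blade outgrowth, with 2100 bp in 3 regions in WUS-GR and 0 in Col-0.

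GATA and WRKY factors stood at 56.7% and 56.2%, and bHLH factors at 51.9% (83 of 160, 44.2 to 59.5) in WUS-GR, and 7 bHLH genes (4.38%) had a region in Col-0. WRKY57 and WRKY53 followed WRKY11 with 2100 and 1800 bp, and GATA5 led its family with 2400 bp. The large NAC and MYB families were bound at 43.0% (49 of 114) and 39.4% (119 of 302, 34.1 to 45.0). In the NAC family the senescence regulator NAP, ATAF2 and NAC083 had 2000 bp each. Of the bZIP genes 34 of 77 were bound (44.2%), with none in Col-0, led by BZO2H3 at 1600 bp. Heat shock factors were bound at 11 of 24 genes, and none of the bound members exceeded 800 bp. YABBY genes were bound at 4 of 6 and TIFY genes, which include the JAZ repressors, at 10 of 18 in WUS-GR, and 1 TIFY gene had a region in Col-0.

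Several families stood near or below the background. LBD genes of lateral organ boundaries were bound at 14 of 43 (32.6%, 20.5 to 47.5), although LBD37 and LBD38, repressors of nitrogen responses, had 1900 and 1700 bp. LBD38 had 100 bp in Col-0, and 1100 bp in WUS-GR without regions within 1000 bp of a Col-0 window. C2H2 zinc finger genes were bound at 43 of 151 (28.5%, 21.9 to 36.1) and NF-Y subunits at 9 of 35 (25.7%, 14.2 to 42.1), with the background of 24.6% inside the intervals of all 3 families. MADS genes, which specify flowers and also comprise many genes active only in seeds or pollen, were bound at 20 of 109 (18.3%, 12.2 to 26.6), and the leading members were the flowering genes AGL20 and AGL8 with 1000 bp each. B3 genes other than ARFs were bound at 15 of 82 (18.3%, 11.4 to 28.0), and for MADS and B3 genes too the interval contains the background. In the B3 family single members were bound over long stretches, namely ABS2 with 2300 bp, TEM1 with 1800 bp and RAV2 with 1300 bp. Counting every overlapped gene gave 30.3% for MADS and 29.3% for B3 genes, beside 38.1% for all protein-coding genes.

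**Figure D2:**
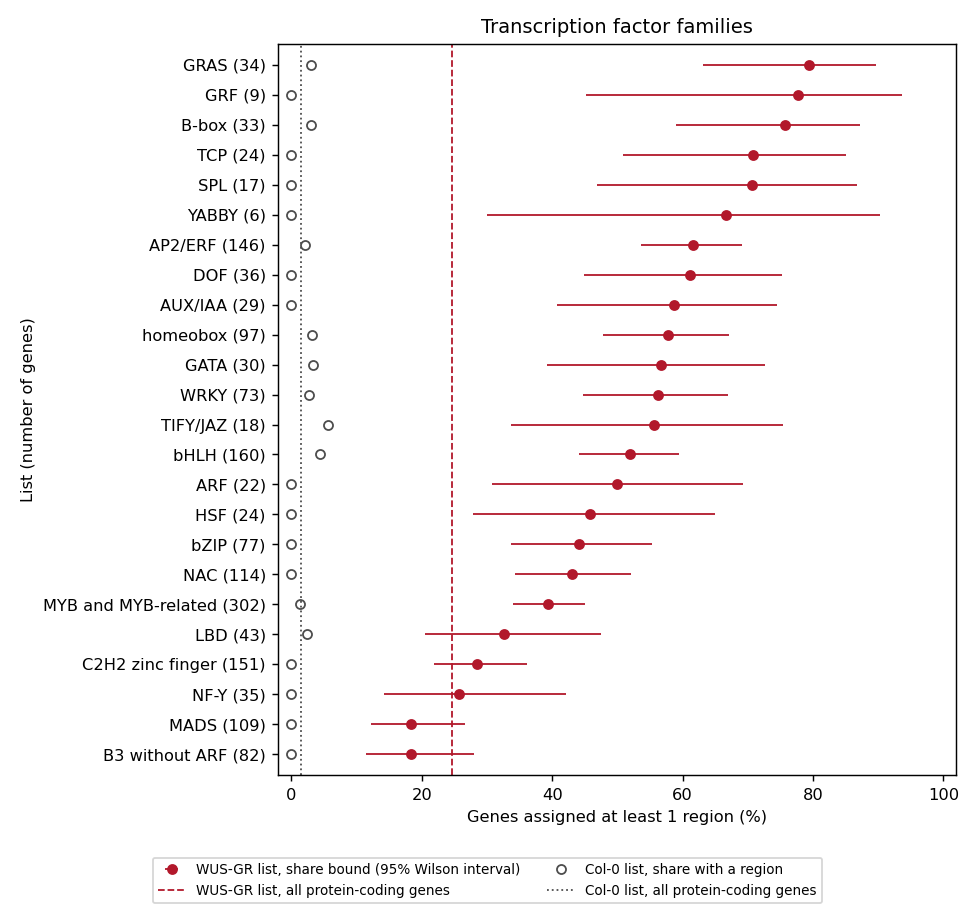
Share of genes with at least 1 assigned region (horizontal axis, percent) in each transcription factor family, with the number of genes in brackets, filled points with 95% Wilson intervals for the WUS-GR list and open points for the Col-0 list, and lines at the shares of all protein-coding genes. In WUS-GR the families run between 79.4% for GRAS and 18.3% for MADS and B3 around a background of 24.6%, whereas no family exceeds 5.56% in Col-0.

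Genes of hormone pathways were bound still more often. Of 359 genes of synthesis, transport, perception and response in 9 pathways, 204 were bound in WUS-GR (56.8%, 51.7 to 61.8), compared with 24.6% of all protein-coding genes, and 9 (2.51%) had a region in Col-0, compared with 1.47% of all. The 104 hormone genes that also belong to a transcription factor family were bound at 58.7% (49.0 to 67.6), and the other 255 at 56.1% (49.9 to 62.0). All 9 pathways lay above the background, between 44.3% for cytokinin and 75.9% for jasmonate, and every pathway's lower interval bound exceeded 24.6%. By role over all pathways, 39 of 56 repressors (69.6%, 56.7 to 80.1), 12 of 20 turnover enzymes, 24 of 45 receptors (53.3%) and 52 of 103 synthesis genes (50.5%, 41.0 to 59.9) were bound, with overlapping intervals.

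In the auxin pathway 49 of 88 genes were bound in WUS-GR (55.7%, 45.3 to 65.6) and 3 in Col-0. Of the synthesis genes, 6 of 14 were bound, and YUC6 had the most with 800 bp. Transport genes were bound at 12 of 17, with the efflux carrier PIN7 at 1400 bp, PIN3 at 1000 bp and the influx carriers AUX1 and LAX1 at 1100 bp each. The receptor gene TIR1 had 2300 bp in WUS-GR and 100 bp in Col-0, whereas its relatives AFB2 and AFB5 had 700 and 500 bp in WUS-GR and AFB1, AFB3 and AFB4 had none in either list. Of the AUX/IAA repressors 17 of 29 were bound, with IAA3 at 2000 bp, IAA16 at 1900 bp and IAA17, IAA18 and IAA26 at 1300 bp each. Among the response factors, 11 of 22 were bound, and the activator ARF6 led with 2300 bp in 5 regions that lay upstream, in the gene body and downstream. The clade of ARF12 to ARF15 and ARF20 to ARF22 was at 0 in both lists.

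Cytokinin had the lowest share of the pathways, with 27 of 61 genes bound in WUS-GR (44.3%, 32.5 to 56.7) and none in Col-0. This interval overlaps those of all other pathways but jasmonate. Counting every overlapped gene gave 57.4% for cytokinin and 56.2% for gibberellin. The largest value belonged to LOG7, an enzyme that releases active cytokinin and works in the shoot meristem, with 2100 bp in WUS-GR. Its 5 regions all had their midpoints in the gene body (chromosome 5, 1921548 to 1925407). The degrading oxidases CKX5, CKX6 and CKX7 had 1400, 1500 and 1500 bp, and CKX1 to CKX4 had 0. Of the receptors, AHK3 and AHK4 had 900 and 300 bp and AHK2 had 0. Along the signalling chain the roles differed in their counts: 1 of 6 phosphotransfer proteins and 1 of 11 type-B response regulators, the activators of the pathway, were bound, compared with 6 of 10 type-A regulators, which dampen it, and 6 of 6 cytokinin response factors. ARR9 and ARR7 led the type-A genes with 1700 and 1200 bp, and the only bound type-B gene, ARR1, had 400 bp. The intervals were 3.01 to 56.4% for the phosphotransfer proteins and 1.62 to 37.7% for the type-B regulators, and both contain the background of 24.6%. Those of the type-A regulators (31.3 to 83.2%) and the response factors (61.0 to 100%) lay above it. The difference between roles was not tested, because the genes were counted in 1 list.

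Gibberellin genes were bound at 18 of 32 (56.2%, 39.3 to 71.8) in WUS-GR and 1 in Col-0. Of the synthesis genes 3 of 14 were bound (21.4%), and GA3OX1 had the most with 400 bp. The inactivating oxidases were bound at 5 of 7, led by GA2OX6 at 2300 bp in WUS-GR and 0 in Col-0. All 3 receptors were bound, with GID1A and GID1C at 300 and 200 bp beside the 3100 bp of GID1B. All 5 DELLA repressors were bound as well, GAI with 2300 bp, RGA1 with 1200 bp, RGL2 with 700 bp, RGL3 with 400 bp and RGL1 with 200 bp, and none of them had a region in Col-0. The larger of the GAI regions spanned 1600 bp upstream of the gene (chromosome 1, 5146601 to 5148200). SLY1, the F-box protein that marks DELLAs for degradation, was at 0, and its relative SNE and the modifier SPY had 300 bp each.

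In the brassinosteroid pathway 20 of 32 genes were bound in WUS-GR (62.5%, 45.3 to 77.1) and 3 in Col-0. The rate-limiting synthesis gene DWF4 had 2000 bp in 4 regions in WUS-GR and 100 bp in Col-0, CPD had 1100 bp and 0, and ROT3 had 1000 bp and 0. The receptor gene BRI1 had 1300 bp in 3 regions, whereas the co-receptor gene BAK1 had 0. BIN2, the kinase that blocks the pathway, had 1600 bp in WUS-GR and 0 in Col-0, and the phosphatase gene BSL3 went the other way, with 0 in WUS-GR and 500 bp in Col-0. All 6 transcription factors of the BZR1 family were bound, BES1 with 1800 bp, BEH1 with 1400 bp, BEH3 with 1300 bp, BEH2 and BEH4 with 500 bp each and BZR1 with 200 bp. The turnover enzyme BAS1 had 900 bp and its relative SOB7 had 0.

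Abscisic acid genes were bound at 25 of 46 (54.3%, 40.2 to 67.8) in WUS-GR and none in Col-0. NCED3, which sets the rate of synthesis under drought, had 1000 bp, and of the degrading enzymes CYP707A2 had 1100 bp, CYP707A3 had 700 bp, CYP707A1 had 500 bp and CYP707A4 had 0. Of the 14 receptors 6 were bound, PYL8 with 2400 bp, PYL4 with 1800 bp, PYR1 with 1400 bp, PYL5 with 1100 bp, PYL6 with 500 bp and PYL2 with 300 bp. The phosphatases that hold the pathway off were bound at 6 of 9, led by HAI1 with 2000 bp, PP2CA with 1800 bp and HAI2 with 1600 bp, whereas ABI1 was at 0. Of the kinases, OST1 had 700 bp, SNRK2.3 had 300 bp and SNRK2.2 had 0. The seed regulators ABI3 and ABI4 were at 0, and ABI5 and ABF3 had 700 bp each.

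Ethylene genes were bound at 17 of 30 (56.7%, 39.2 to 72.6) in WUS-GR and 1 in Col-0. The oxidase gene ACO4 had 1700 bp in 4 regions in WUS-GR and 100 bp in Col-0, and the synthases ACS2 and ACS6 had 1400 and 1300 bp in WUS-GR and 0 in Col-0. Of the 5 receptors ERS2 was bound, with 300 bp, and ETR1, ETR2, ERS1 and EIN4 were at 0, while all 4 genes of the signalling steps were bound. These were CTR1, the kinase that restrains the pathway, with 1500 bp, the F-box genes EBF1 and EBF2 with 1300 and 800 bp, and EIN2 with 500 bp. The central factor EIN3 was at 0, as were EIL2 and EIL3, and EIL1 and ERF1 had 500 bp each.

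Jasmonate was the pathway with the highest share, with 22 of 29 genes bound in WUS-GR (75.9%, 57.9 to 87.8) and 1 in Col-0. This interval overlaps those of all other pathways but cytokinin. Synthesis was bound nearly throughout, at 10 of 11 genes, the exception being AOC4. AOS had 1700 bp, LOX3 had 1600 bp and LOX4 had 900 bp in WUS-GR, and each was at 0 in Col-0. The JAZ repressors and their adaptor NINJA were bound at 10 of 14 genes. JAZ6 led with 2300 bp in 1 upstream region (chromosome 1, 27276201 to 27278500), followed by JAZ2 with 1400 bp, JAZ9 with 1300 bp and JAZ1 with 1000 bp. JAZ12 was at 0 in WUS-GR and had 100 bp in Col-0. The receptor gene COI1 was at 0 in WUS-GR. Of the factors that act downstream, MYC2 and MYC4 had 400 and 600 bp, and MYC3 had 0.

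Salicylic acid genes were bound at 14 of 24 (58.3%, 38.8 to 75.5) in WUS-GR and none in Col-0. The bound genes had a median of 350 bound bases, the same as in the gibberellin pathway, beside 400 over all bound genes. Only 1 gene (4.17%) had more than 1 region, beside 6.64% of all protein-coding genes, a count too small to tell these shares apart. The synthesis gene ICS2 had 1500 bp and ICS1, its main isoform, had 200 bp. Of the receptors, NPR3 and NPR4, which dampen the response, had 1000 and 400 bp, and NPR1, which activates it, and NPR2 had 0. In signalling, PAD4 had 400 bp and its partners EDS1 and SAG101 had 0. TGA4 led the transcription factors with 1000 bp.

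Strigolactone and karrikin genes were bound at 12 of 17 (70.6%, 46.9 to 86.7) in WUS-GR and none in Col-0. Synthesis was represented by MAX1 alone, with 600 bp, and D27, CCD7 and CCD8 were at 0. All 3 perception genes were bound, KAI2 with 1100 bp, D14 with 700 bp and the shared F-box gene MAX2 with 400 bp. Of the 8 repressors of the SMAX1 family 7 were bound, SMAX1 with 1600 bp and SMXL2 with 1400 bp, the karrikin branch, ahead of SMXL6, SMXL7 and SMXL8 of the strigolactone branch with 700, 600 and 300 bp. This order depended on the assignment. Counting every overlapped gene gave SMXL6 1900 bp, SMAX1 1600 bp and SMXL2 1400 bp, and joining windows up to 500 bp apart gave 2800, 1600 and 1900 bp. Among the other bound repressors, SMXL3 and SMXL5 had 100 bp each, and both were at 0 with regions of at least 300 bp. The branching repressor BRC1 had 1000 bp and BRC2 had 0.

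The bound bases of single hormone genes also moved with the assignment. Leaving out regions near Col-0 windows brought ACO4 to 0 and DWF4 to 1100 bp, and of the 203 bound hormone genes other than GID1B it lowered 3 by more than 1.5 times. With 1000 bp upstream 50 of the 203 were lowered by more than 1.5 times, among them GAI to 700 bp, BES1 to 700 bp, PYL8 to 1200 bp and TIR1 to 1300 bp, and ICS2, IAA17 and BRC1 were at 0. The share of bound ARF genes was then 27.3%. When non-coding genes could take a region, 24 were lowered in this way, among them PYL8 to 1200 bp, PYL4 to 700 bp, AOS to 600 bp and ARR9 to 400 bp, and JAZ6, CKX6 and BRC1 were at 0. With regions of at least 300 bp, 37 of the 203 were lowered in this way, and 30 were at 0, among them RGL1, GID1C, BZR1, MAX2 and ARR1. The full counts of DELLA repressors, gibberellin receptors, BZR1 family factors and strigolactone and karrikin perception genes thus rested in part on shorter regions. The count of bound SMAX1 family repressors did so too.

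**Figure D3:**
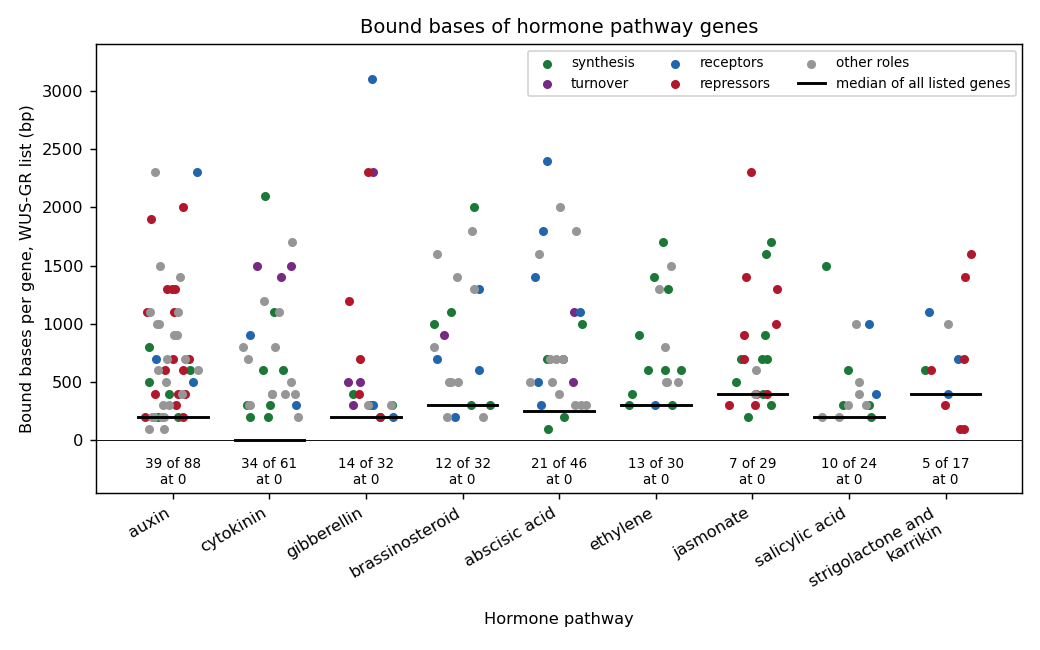
Bound bases per gene in the WUS-GR list (vertical axis, bp) for the bound genes of 9 hormone pathways, coloured by role, with the number of genes at 0 below and a bar at the median of all listed genes. The medians lie between 0 bp for cytokinin and 400 bp for jasmonate and for strigolactone and karrikin, and the highest point is GID1B at 3100 bp.

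Function classes outside the transcription factors, 26 classes defined by the product names of the annotation, were bound at 1380 of 5737 genes in WUS-GR (24.1%, 23.0 to 25.2), close to the 24.6% of all protein-coding genes. The classes themselves differed widely. Aquaporins, the water channels, were bound at 18 of 37 genes (48.6%, 33.4 to 64.1) in WUS-GR and had a region at 4 of 37 (10.8%) in Col-0, the highest share of any class in each list. Without the WUS-GR regions within 1000 bp of a Col-0 window their share was 37.8%, just below the 38.7% of the calmodulin class, with 6587 of 27444 protein-coding genes bound under that setting. After PIP1C and PIP3, PIP2A had 1700 bp.

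Signalling and cell wall classes were above the background. Protein kinases were bound at 334 of 909 genes in WUS-GR (36.7%, 33.7 to 39.9) and 9 in Col-0 (0.990%), with MAPKKK14 at 2200 bp and AT3G23750, a leucine-rich repeat kinase, at 2100 bp. AT3G23750 had 100 bp in Col-0, and 1400 bp in WUS-GR without regions within 1000 bp of a Col-0 window. Leucine-rich repeat receptor kinases alone stood at 68 of 181 (37.6%, 30.8 to 44.8), and calmodulins and EF-hand calcium sensors at 48 of 124 (38.7%, 30.6 to 47.5). UDP-glycosyltransferases, which attach sugars to hormones and other small molecules, were bound at 50 of 131 (38.2%, 30.3 to 46.7), led by UGT85A1 at 1600 bp. Expansins and xyloglucan endotransglucosylases, which loosen cell walls, were bound at 23 of 63 (36.5%, 25.7 to 48.9), led by XTH7 at 2500 bp in 4 regions in WUS-GR, and none had a region in Col-0. Pectin-modifying enzymes, another cell wall class, were at 52 of 247 (21.1%, 16.4 to 26.6), near the background. Cyclins, cyclin-dependent kinases and their inhibitors were bound at 34 of 98 (34.7%, 26.0 to 44.5), with the inhibitor ICK1 at 1400 bp. Photosystem and light-harvesting genes were at 22 of 68 in WUS-GR (32.4%, 22.4 to 44.2), with the background inside the interval. In Col-0 they were at 4 of 68 (5.88%), beside 1.47% of all protein-coding genes. Transmembrane or DUF proteins of unknown function were at 362 of 1278 in WUS-GR (28.3%, 25.9 to 30.9). ABC transporters, glutathione S-transferases, sugar and amino acid transporters, cytochromes P450, peroxidases, RING or U-box ligases, NBS-LRR resistance genes and histones lay between 34.2% and 21.1%, each with the background inside its interval.

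The classes of basic cell maintenance were below the background, a comparison that takes no account of the space in front of genes described below. Ribosomal proteins were bound at 36 of 332 genes in WUS-GR (10.8%, 7.94 to 14.6) and 2 in Col-0. Pentatricopeptide repeat proteins, which process organelle RNA, were at 28 of 279 (10.0%, 7.04 to 14.1), proteasome subunits at 4 of 38 (10.5%), tRNA synthetases at 6 of 64 (9.38%) and RNA helicases at 4 of 68 (5.88%, 2.31 to 14.2). Chaperones of the heat shock classes were at 26 of 178 (14.6%, 10.2 to 20.5). F-box genes, a large class with many recent duplicates, were bound at 53 of 653 (8.12%, 6.26 to 10.5), although its members AT2G27310, TIR1 and AUF1 had 2700, 2300 and 1900 bp. Defensin-like peptides, mostly of reproductive tissue, were at 9 of 123 (7.32%, 3.90 to 13.3), and none exceeded 500 bp. Counting every gene whose window a region overlaps gave these 8 classes between 14.6% and 32.0%, below the 38.1% of all protein-coding genes under that rule.

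**Figure D4:**
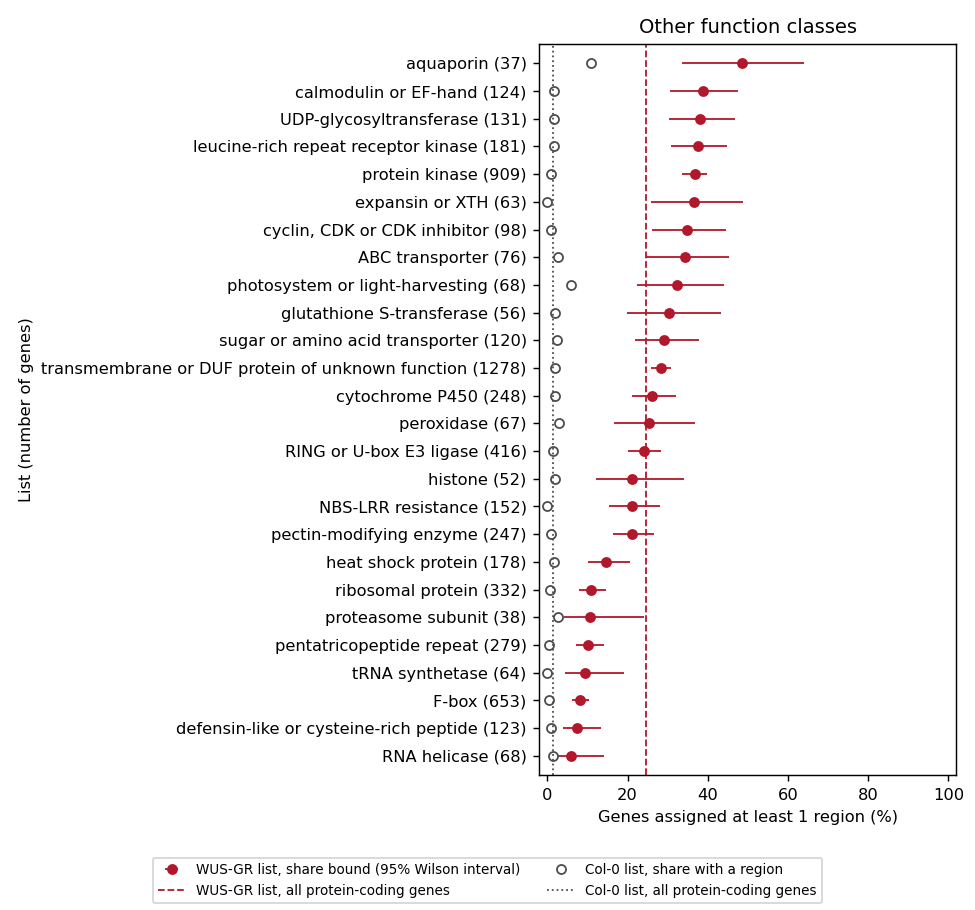
Share of genes with at least 1 assigned region (horizontal axis, percent) in 26 function classes outside the transcription factors, drawn as for the families, with filled points for the WUS-GR list and open points for the Col-0 list. In WUS-GR the shares run between 48.6% for aquaporins and 5.88% for RNA helicases on either side of the 24.6% of all protein-coding genes.

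The process terms carried by the annotation gave a further view, which was ranked by its values and is a description. Genes whose note gives only a number of processes, without naming them, entered no term. The counts are therefore not the full membership of each process. Notes were split at commas, so some terms are parts of longer names, such as DNA-dependent and via spliceosome. Of 140 such terms with at least 20 protein-coding genes, 84 were bound above 24.6% and 56 below. Of the 16199 genes with a process note 25.9% were bound. Terms just above 24.6%, such as signal transduction (73 of 293, 24.9%), lay below that share. The highest shares in WUS-GR were those of response to blue light (15 of 20 genes), response to chitin (41 of 56, 73.2%), response to karrikin (42 of 70), abscisic acid mediated signaling (13 of 22), response to wounding (39 of 66, 59.1%), response to water deprivation (45 of 77, 58.4%) and response to auxin stimulus (36 of 63, 57.1%). In Col-0 the same terms held between 0 and 3 genes. The lowest shares were those of RNA splicing (2 of 31, 6.45%), tRNA aminoacylation (3 of 43), translational elongation and rRNA processing (2 of 27 each), RNA modification (3 of 37, 8.11%) and ribosome biogenesis (9 of 103, 8.74%). Translation, the largest of these, stood at 44 of 400 genes.

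Genes differ in the space in front of them, and a gene with a longer upstream stretch has more sequence within reach of the assignment. Upstream space was measured from the TSS to the nearest other protein-coding gene. Its median was 940.0 bp over all protein-coding genes, 2262 bp over transcription factor genes, 2830.0 bp over hormone genes and 354.5 bp over ribosomal protein genes, so it moved together with the share bound, and its part in these shares was not tested beyond the classes below. Pentatricopeptide repeat and RNA helicase genes had medians of 340.0 and 366 bp. Of all protein-coding genes with less than 500 bp, 13.0% were bound in WUS-GR. That share lies inside the intervals of ribosomal protein, pentatricopeptide repeat and RNA helicase genes. For genes in neither the transcription factor nor the hormone class, the share bound in WUS-GR was 12.8% with less than 500 bp of space, 20.8% with 500 to under 1000 bp, 26.8% with 1000 to under 2000 bp, 36.1% with 2000 to under 4000 bp and 34.0% with 4000 bp or more. In Col-0 the share of all protein-coding genes with a region was 0.943% in the lowest class and 2.52% in the highest.

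Within these classes the shares of transcription factor genes remained higher. They were 20.2% (15.7 to 25.5) with less than 500 bp, 32.4% (26.1 to 39.5) with 500 to under 1000 bp, 40.1% (34.9 to 45.5) with 1000 to under 2000 bp, 52.8% (48.1 to 57.4) with 2000 to under 4000 bp and 60.04% (55.5 to 64.4) with 4000 bp or more. In each class the interval lay above that of the genes in neither class. Hormone genes stood at 25.6% (14.6 to 41.1), 33.3% (19.8 to 50.4), 53.8% (41.9 to 65.4), 62.0% (51.7 to 71.2) and 70.0% (61.6 to 77.2) over the same classes. In every class these intervals overlapped those of the transcription factor genes. Hormone genes were separated from the genes in neither class by their intervals in all classes but that of 500 to under 1000 bp. Space did not order the families fully: MADS genes had a median of 1838 bp and 18.3% bound, while B-box genes had 1626 bp and 75.8%, and F-box genes had 903 bp, close to the median of all genes, and 8.12%.

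**Figure D5:**
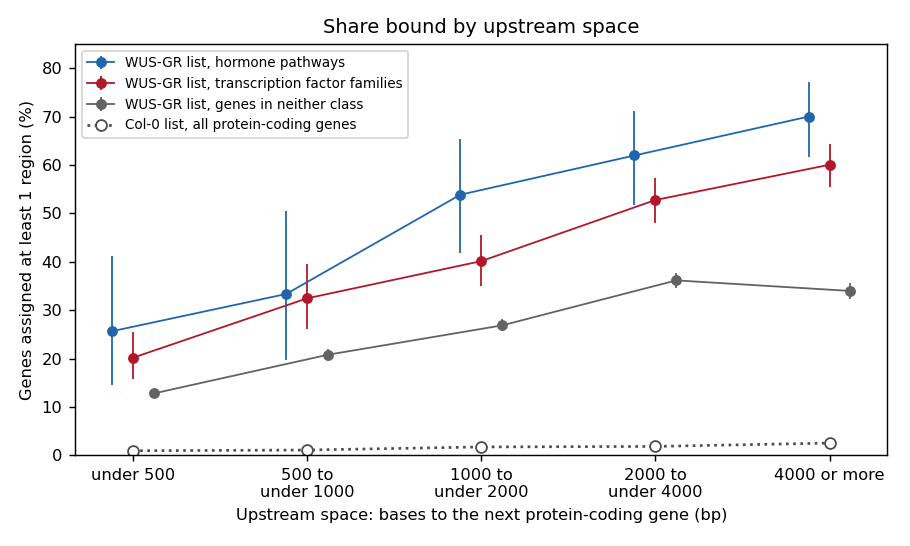
Share of genes with at least 1 assigned region (vertical axis, percent) by upstream space (horizontal axis, bp), with 95% Wilson intervals, for hormone genes, transcription factor genes and genes in neither class in the WUS-GR list, and for all protein-coding genes in the Col-0 list. At 4000 bp or more the WUS-GR shares are 70.0%, 60.04% and 34.0%, and the Col-0 share is 2.52%.

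The place of the regions was then compared between the classes. Of 332 regions at hormone genes, 56.6% (51.2 to 61.9) lay upstream, compared with 58.8% (57.7 to 59.9) of 7712 regions at genes in neither class, and the medians were at -85 and -79.5 bp from the TSS. Of 1146 regions at transcription factor genes, 64.0% (61.1 to 66.7) lay upstream, an interval above that of the genes in neither class, with the median at -193 bp from the TSS. Regions of at least 1000 bp made up 9.08% of those at transcription factor genes, 8.13% of those at hormone genes and 5.34% of those at genes in neither class.

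The Col-0 list holds the reverse comparison. The 5 genes with most Col-0 bases were AT3G41762 with 0 bp in WUS-GR and 900 bp in Col-0, AT1G40104 with 100 bp in WUS-GR and 800 bp in Col-0, AT2G07629 with 200 bp in WUS-GR and 800 bp in Col-0, the transcription factor gene GATA11 with 700 bp in WUS-GR and 500 bp in Col-0, and AT2G07667 with 0 bp in WUS-GR and 500 bp in Col-0. All of these 5 but GATA11 are annotated as uncharacterized proteins. The value of 500 bp was shared, since BSL3 also had 500 bp in Col-0, and ties were taken in order of locus tag. The reference genes of the design were CLV3, the stem cell peptide gene, at 0 in both lists, the co-repressor gene TPL with 1600 bp in WUS-GR and 0 in Col-0, and ARR7, given above. WUS lends its coding sequence and UBQ10 its promoter to the transgene. In those parts reads from the insertion cannot be told apart from those of the native loci. WUS had 600 bp in WUS-GR and 0 in Col-0. WUS-GR windows covered 42.2% of its 879 coding bases. They also covered 20% of the 1000 bp before its TSS, which lie outside the coding sequence carried by the transgene. UBQ10, whose promoter drives the fusion, had 900 bp in WUS-GR and 100 bp in Col-0, and WUS-GR windows covered 67.6% of the 1000 bp before its TSS and 0 of 1374 coding bases.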

How the data were processed

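ChIP-seq of whole seedlings was analysed from the deposited positions (unit: other, a chromosome, a start and an end per window). The authors mapped reads with BWA to TAIR10 and compared WUS-GR with Col-0 with hiddenDomains in 100-bp windows, keeping windows above a posterior threshold. The files give no score or read count, so the depth is unknown.

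Starts were read as 0-based and are printed from 1. Gene models and sequence came from the NCBI annotation of TAIR10.1, with 27444 protein-coding genes. Merging and assignment were tested on simulated data. Hormone lists were set by gene symbol, transcription factor families by InterPro domains in the annotation (GRF and NF-Y by product name), where symbol and product had been planned, and function classes by product wording, which can misplace single genes. Genes shared between lists count in each list. The members and lists were chosen with earlier results of these data known. Named genes are the 25 with most bound bases, up to 6 per hormone list together with all members of roles of at most 5 genes, up to 3 per family or class, the 5 leading genes of Col-0, and WUS, CLV3, TPL, ARR7 and UBQ10. Of the hormone genes, 1 is counted but not reported here by name. Further hormone genes are named to complete a role, and were chosen after their values were seen. Alternatives changed the gene set, assignment, upstream distance, region length, Col-0 windows or merging. Python 3.11.15, numpy 2.4.6, pandas 2.3.3 and matplotlib 3.10.9 were used.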

Additional observations from a re-analysis of the deposited data

How the results depend on the processing

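The alternatives were run on 5 main results, on the 59 lists and on the bound bases of the named genes. Counting every gene whose window a region overlaps gave 10452 bound protein-coding genes (38.1%), and 54.8% of transcription factor genes, 66.9% of hormone genes and 36.8% of the other function classes. Assigning over all annotated genes gave 42.5% of transcription factor genes and 22.7% of the function classes. With 1000 bp upstream these were 39.98% and 22.6%. Regions of at least 300 bp gave 37.5%, 48.5% of hormone genes and 18.5%, beside 18.8% of all. Leaving out regions within 1000 bp of a Col-0 window, or joining windows up to 500 bp apart, kept all 5 main results within their intervals or within 1.5 times. Transcription factor and hormone shares stayed above all protein-coding genes in all 6 alternatives. Of 59 lists, 54 kept their side of the background, and NF-Y, cytochrome P450, histone, peroxidase and RING or U-box genes changed it in at least 1 alternative. Of the 25 leading genes, 8 to 23 stayed among the leading 25, with 8 under any overlap and 11 under joining, which also counts the bases between windows. Among 128 named genes outside the hormone lists and the leading 25, 35 were lowered by more than 1.5 times with 1000 bp upstream, 19 over all annotated genes and 10 without regions near Col-0 windows. No paired analysis was possible because WUS-GR and Col-0 had 1 list each. The depth is unknown, a list without scores cannot rank regions by strength, and with 1 list per group no difference could be set against replicate error.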
